A study of Mus musculus with 11 samples.

Results

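Toll-like receptors are membrane proteins that recognise molecules of microbes and of damaged cells and start an inflammatory response. Those at the cell surface sense bacterial lipopeptides, lipopolysaccharide and flagellin, whereas those in endosomes sense RNA and DNA that a cell has taken up. In most tissues they are carried above all by resident macrophages, and some are also made by endothelial and stromal cells.

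The 10 genes described are Tlr1, Tlr2, Tlr3, Tlr4, Tlr5, Tlr6, Tlr7, Tlr8, Tlr9 and Tlr13, out of 55487 genes counted. They were chosen as members of a gene family, with earlier results of these data known, and all 10 had enough counts to be tested. The 2 other mouse Toll-like receptor genes, Tlr11 and Tlr12, are not among the 10 and are described apart. RNA-seq was performed on embryonic hearts of 5 Pde2A-/- and 6 Pde2A+/+ embryos of the same line, B6; 129P2-Pde2A tm1Dgen, in which both copies of the gene for phosphodiesterase 2A, an enzyme that breaks down cAMP and cGMP, carry the tm1Dgen allele or are wild type. The embryos came from matings of heterozygotes and were taken at E14.5, untreated, with 1 library per heart. The mutation is present in every tissue of the embryo, and a whole heart holds cardiomyocytes, endothelium, fibroblasts, blood cells and macrophages together. The series asked how the transcriptome of the embryonic heart changes when Pde2A is lost, and the question here is whether the Toll-like receptor genes take part in that change.

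Each library held between 35865537 and 42835382 reads on the strand of a gene, and a Toll-like receptor gene had from 10 to 583 of them. Pde2a itself had 0 to 2 counts per heart in both genotypes. Gm45837, annotated on the same strand, shares 64.3% of its exonic bases, and a read on both genes is counted for neither. The part of this overlap in the low counts was not tested. The counts of Pde2a are not taken as a measure of its expression, and they offer no check of the genotype labels. Cardiomyocyte markers were high in all 11 hearts, with summed levels of 28287 to 36078 CPM (TMM-normalised counts scaled to a common library size) in Pde2A-/- and 27876 to 37419 CPM in Pde2A+/+. A single library stood apart. Pde2A+/+ replicate 7 held 92.6 CPM of T cell markers in sum against 1.79 to 2.38 CPM in the other Pde2A+/+ hearts and 2.56 to 3.04 CPM in Pde2A-/-. Results are therefore also given without that heart.

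The regions around the start sites are shown for genes that differ in what follows: Tlr8 and Tlr13, which rose most, Tlr3, which rose less, Tlr5, which did not pass the test, and Tlr6, whose window holds the letters of an interferon response element. Of the 10 genes, 8 have an entry in the RefSeq table for GRCm38.p6, with 10 windows of 300 bases from 250 before to 50 after a start site. Tlr4 and Tlr7 have none in that table. Capitals mark motif matches on either strand, and the sequences run 5′ to 3′ on the strand of the gene.
Tlr8, chrX:167264280-167264579, minus strand: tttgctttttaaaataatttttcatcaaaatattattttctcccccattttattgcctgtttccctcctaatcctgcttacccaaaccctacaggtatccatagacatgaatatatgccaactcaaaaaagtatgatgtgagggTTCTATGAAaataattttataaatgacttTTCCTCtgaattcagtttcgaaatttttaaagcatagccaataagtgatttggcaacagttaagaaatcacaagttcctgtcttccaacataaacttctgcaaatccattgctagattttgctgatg
Tlr13, chrX:106143025-106143324, plus strand: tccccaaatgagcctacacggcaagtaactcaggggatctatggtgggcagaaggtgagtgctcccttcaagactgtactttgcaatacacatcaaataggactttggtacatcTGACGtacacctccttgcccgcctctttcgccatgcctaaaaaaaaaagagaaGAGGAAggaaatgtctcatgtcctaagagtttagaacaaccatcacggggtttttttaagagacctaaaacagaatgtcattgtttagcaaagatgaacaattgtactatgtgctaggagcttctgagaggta
Tlr3, chr8:45410331-45410630, minus strand: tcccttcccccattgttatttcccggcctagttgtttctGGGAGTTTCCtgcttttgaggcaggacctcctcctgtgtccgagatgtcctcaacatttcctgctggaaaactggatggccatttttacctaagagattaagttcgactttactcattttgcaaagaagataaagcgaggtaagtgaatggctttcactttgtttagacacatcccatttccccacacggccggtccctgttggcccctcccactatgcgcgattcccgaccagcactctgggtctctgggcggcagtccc
Tlr6, chr5:64959117-64959416, minus strand: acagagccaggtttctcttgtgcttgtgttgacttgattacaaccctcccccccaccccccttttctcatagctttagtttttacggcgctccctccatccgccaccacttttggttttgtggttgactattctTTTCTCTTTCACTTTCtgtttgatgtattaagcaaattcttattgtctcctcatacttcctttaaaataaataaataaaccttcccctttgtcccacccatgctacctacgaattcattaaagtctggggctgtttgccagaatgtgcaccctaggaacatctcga
Tlr5, chr1:182954538-182954837, plus strand: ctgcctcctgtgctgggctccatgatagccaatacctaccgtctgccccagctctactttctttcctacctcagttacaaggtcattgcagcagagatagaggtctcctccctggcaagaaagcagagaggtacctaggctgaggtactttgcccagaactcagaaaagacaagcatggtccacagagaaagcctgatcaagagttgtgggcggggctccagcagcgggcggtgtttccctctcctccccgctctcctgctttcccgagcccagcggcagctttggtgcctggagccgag

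The motifs searched were a purine box bound by ETS factors such as PU.1 (GAGGAA, in 28.3% of all 32851 RefSeq windows of that length), an interferon response element (GAAA, any 2 bases, GAAA, in 3.44%), a kappaB site (GGGA, any base, TTTCC, in 0.411%), a STAT site (TTCNNNGAA, 8.3%), the cAMP response element (TGACGTCA, 1.79%) and its first letters alone (TGACG, 20.8%). The full element contains the short one, so those 2 matches can overlap. The purine box was found for Tlr8, Tlr13 and Tlr1, and in 2 places for Tlr9. The Tlr8 window also holds a STAT site, and the Tlr13 window the short cAMP letters. The kappaB letters were in the Tlr3 window, 211 bases before the start, and the 2 interferon letters of the Tlr6 window overlap each other. That window lies 931 bases from the gene start of GENCODE, and the Tlr3 window 700 bases. The other Tlr6 window holds 2 STAT sites and the short cAMP letters, and the second Tlr1 window a STAT site. The Tlr2 and Tlr5 windows held none of the 6 motifs in the letters given above, and the full cAMP response element was in none of the 10 windows. Other forms of these sites, such as other kappaB letters, were not searched, so a window without a match may still hold one. A match describes letters only and does not show that a factor binds there.

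Of the 10 Toll-like receptor genes, 5 were higher in Pde2A-/- than in Pde2A+/+ hearts and 0 were lower, in a quasi-likelihood fit (edgeR) of 24177 genes, with p-values adjusted by Benjamini-Hochberg and a threshold of 0.05. None was lower at an unadjusted p under 0.05 or with DESeq2 either. Over all genes tested, 8.93% were called higher and 5.67% lower. Among the 4702 genes whose mean level was within the range of the members, from 0.825 to 11.6 CPM, 11.8% were called higher and 4.4% lower. The same 5 genes, Tlr8, Tlr13, Tlr7, Tlr4 and Tlr3, were those whose hearts did not overlap between the genotypes, a pattern that 5.38% of all genes showed with Pde2A-/- above and 3.11% with Pde2A-/- below. The 10 genes had a median log2 fold change of 0.55, and all genes tested one of −0.023. Only Tlr8 and Tlr13 passed with a fold change of at least 2, as 2.21% of all genes did in that direction and 0.372% in the other. Tlr13 lay at that limit with a log2 fold change of 1.01, which was 0.95 without Pde2A+/+ replicate 7, 0.96 without Pde2A+/+ replicate 6, 0.97 and 0.95 without Pde2A-/- replicates B and D, and 0.97 with the style of the replicate name as a covariate, so that Tlr8 alone passed in those 5 of 18 alternatives. In whole hearts, more cells of a type and more RNA per cell cannot be told apart. Without Pde2A+/+ replicate 7, 5 genes were higher and 0 lower.

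**Figure D1:**
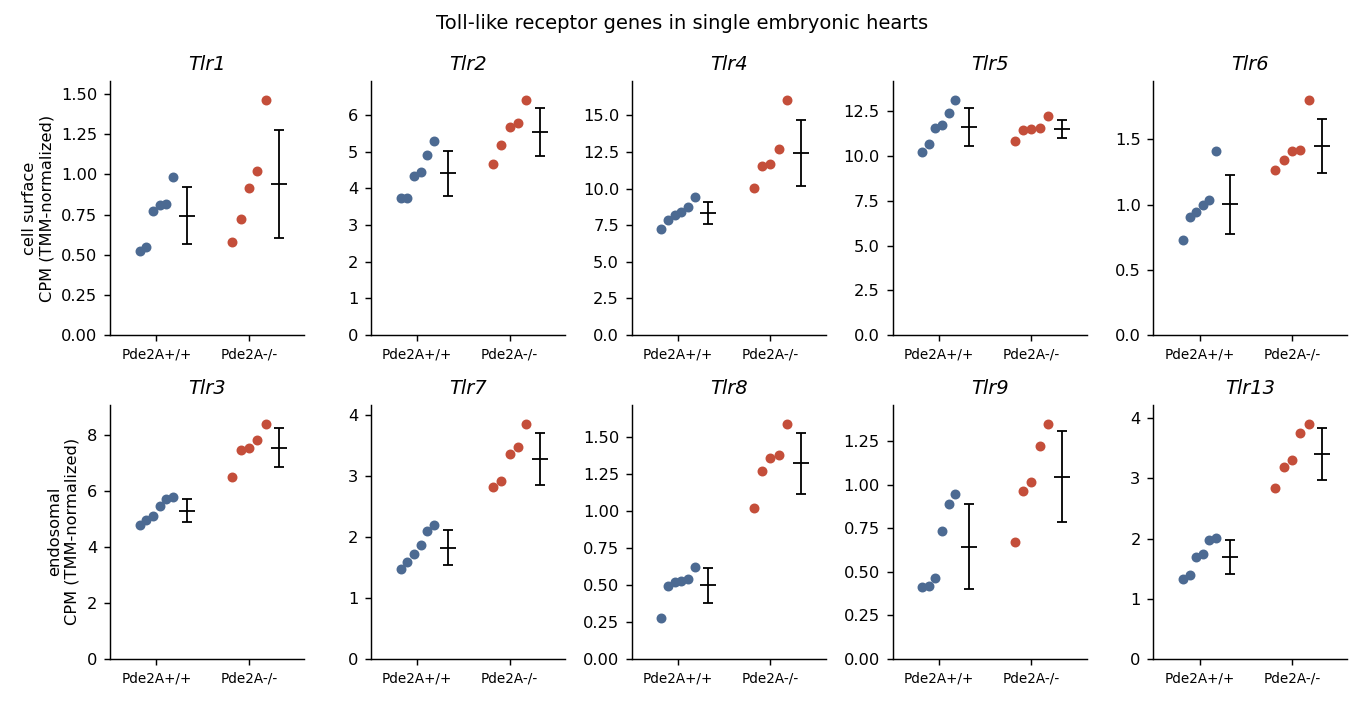
Normalised level in CPM (y axis, from 0, a scale for each gene) of the 10 Toll-like receptor genes in single hearts, with the cell surface receptors above and the endosomal ones below. Each point is a heart (6 Pde2A+/+ in blue, 5 Pde2A-/- in red), and the bar beside the points gives the mean and SD. The genotypes do not overlap for Tlr3, Tlr4, Tlr7, Tlr8 and Tlr13, and the points for Tlr5 lie at the same height, with means of 11.5 and 11.6 CPM.

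Tlr8, a sensor of RNA in endosomes, had the largest change of the 10. Its level was 1.02, 1.275, 1.59, 1.36 and 1.38 CPM in Pde2A-/- replicates A, B, 14, D and 15, and ran from 0.274 to 0.621 CPM with a median of 0.525 CPM in Pde2A+/+. The lowest Pde2A-/- heart was thus above the highest Pde2A+/+ heart. The means were 1.32 ± 0.208 CPM (SD, n = 5) and 0.498 ± 0.117 CPM (SD, n = 6), a log2 fold change of 1.40 (SE 0.20, adjusted p = 6.66e-04). These levels rest on 39 to 64 reads per heart in Pde2A-/- and 10 to 25 in Pde2A+/+.

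Tlr13, which in the mouse recognises bacterial ribosomal RNA, was at 2.84, 3.75, 3.185, 3.91 and 3.31 CPM in the Pde2A-/- hearts in the same order. In Pde2A+/+ it ran from 1.33 to 2.01 CPM with a median of 1.71 CPM, so the genotypes did not overlap. The log2 fold change was 1.01 (SE 0.14, adjusted p = 6.73e-04). Tlr7, which senses single-stranded RNA, was at 2.82, 3.47, 2.91, 3.86 and 3.36 CPM in Pde2A-/- against 1.48 to 2.20 CPM with a median of 1.79 CPM in Pde2A+/+. All 5 Pde2A-/- hearts were above all 6 Pde2A+/+ hearts, with a log2 fold change of 0.85 (SE 0.14, adjusted p = 0.00194). Tlr7, Tlr8 and Tlr13 are all on the X chromosome. Xist, the RNA of the inactive X in females, was at 372 and 403 CPM in Pde2A-/- replicates A and 14. In Pde2A+/+ it was at 263 CPM in replicate 8 alone, and all other hearts of both genotypes had 0.0272 to 0.199 CPM. Hearts with high Xist were thus not evenly spread over the genotypes. With the Xist level in the model the log2 fold changes of the 3 genes were 0.91, 1.40 and 1.02, all still past the threshold.

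Tlr3, which senses double-stranded RNA, was at 7.54, 8.43, 7.49, 6.50 and 7.85 CPM in Pde2A-/- and between 4.78 and 5.81 CPM, median 5.29 CPM, in Pde2A+/+. The groups did not overlap, and the log2 fold change was 0.51 (SE 0.09, adjusted p = 0.00322). Of its exonic bases, 7.32% also lie opposite the gene Gm45542 on the other strand, and the counts used are those of the sense strand. Tlr9, the receptor for DNA with unmethylated CpG, was at 0.966, 1.01, 0.672, 1.22 and 1.35 CPM in Pde2A-/- and ran from 0.411 to 0.944 CPM with a median of 0.597 CPM in Pde2A+/+. There 4 of 5 Pde2A-/- hearts were above every Pde2A+/+ heart and replicate 14 lay within their range, and the log2 fold change of 0.69 (SE 0.27) did not pass (adjusted p = 0.0983).

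At the cell surface only Tlr4 passed. Tlr4 is the receptor for lipopolysaccharide, and its level was 10.05, 11.7, 11.6, 12.7 and 16.1 CPM in Pde2A-/- against 7.28 to 9.46 CPM with a median of 8.31 CPM in Pde2A+/+. The genotypes were apart in all hearts, replicate 15 stood highest, and the log2 fold change was 0.58 (SE 0.11, adjusted p = 0.00557). Without replicate 15 it was 0.47 and still passed.

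Tlr2 pairs with Tlr1 or Tlr6 to sense lipopeptides. Tlr2 was at 5.79, 4.67, 5.18, 6.41 and 5.68 CPM in Pde2A-/- and from 3.73 to 5.29 CPM with a median of 4.39 CPM in Pde2A+/+, with a log2 fold change of 0.33 (SE 0.12, adjusted p = 0.0800). The groups overlapped, and 3 of 5 Pde2A-/- hearts were above all Pde2A+/+ hearts. Without Pde2A-/- replicate B the adjusted p was 0.0460. Tlr6 was at 1.41, 1.42, 1.34, 1.80 and 1.27 CPM in Pde2A-/- and from 0.730 to 1.41 CPM with a median of 0.967 CPM in Pde2A+/+, with a log2 fold change of 0.53 (SE 0.18, adjusted p = 0.0595). Pde2A+/+ replicate 11, at 1.41 CPM, lay among the Pde2A-/- hearts, and without it the adjusted p was 0.0219. Tlr1 was at 1.02, 1.46, 0.722, 0.916 and 0.579 CPM in Pde2A-/- and from 0.521 to 0.985 CPM with a median of 0.790 CPM in Pde2A+/+. Its groups overlapped widely, and the log2 fold change of 0.34 had a 95% interval from −0.19 to 0.88 (adjusted p = 0.390). Tlr1 and Tlr6 are neighbours on chromosome 5 and share sequence, 15.4% of the 50-base stretches of Tlr1 and 12.3% of those of Tlr6, and reads from such stretches cannot be placed, so both counts are uncertain.

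Tlr5, the flagellin receptor, was at 11.4, 11.5, 12.2, 10.8 and 11.5 CPM in Pde2A-/- and from 10.2 to 13.1 CPM with a median of 11.6 CPM in Pde2A+/+. All Pde2A-/- hearts lay inside the range of Pde2A+/+. The log2 fold change was −0.014 with a 95% interval from −0.17 to 0.14 (adjusted p = 0.920), so a change above 0.14 or below −0.17 was outside the interval.

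Mice carry 2 further Toll-like receptor genes. Tlr12, which recognises profilin of protozoa, was at 0.496, 0.661, 0.423, 0.527 and 0.358 CPM in Pde2A-/- and from 0.447 to 1.199 CPM with a median of 0.696 CPM in Pde2A+/+. Its log2 fold change of −0.54 (SE 0.27) did not pass (adjusted p = 0.192). Pde2A+/+ replicate 7 was the highest heart, and without it the value was −0.33. Tlr11 had 0 counts in all 11 hearts, which allows up to 3 counts per library.

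**Figure D2:**
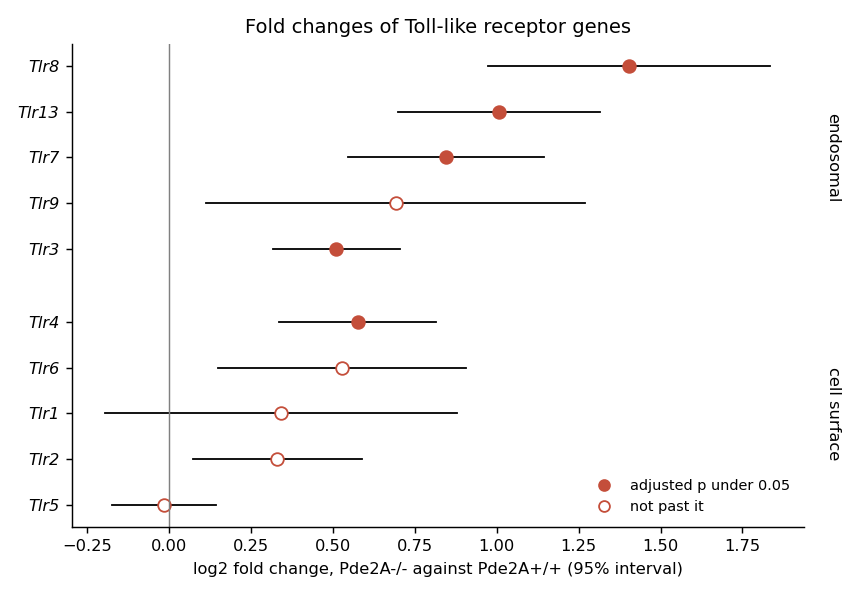
Log2 fold change of each of the 10 Toll-like receptor genes in Pde2A-/- against Pde2A+/+ hearts (x axis) with its 95% interval, endosomal receptors above and cell surface receptors below. Filled points passed an adjusted p of 0.05, which were 4 of 5 endosomal and 1 of 5 cell surface genes, from 1.40 for Tlr8 to −0.014 for Tlr5.

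By place, 4 of the 5 endosomal receptors rose, with a median log2 fold change of 0.85, against 1 of the 5 at the cell surface, with a median of 0.34. This grouping was made with the values known, and the difference between the places was not tested. The summed level of the 5 endosomal genes was 15.2 to 17.9 CPM in Pde2A-/- and 8.52 to 11.3 CPM in Pde2A+/+. For the 5 cell surface genes it was 29.7 to 35.1 CPM and 23.0 to 27.4 CPM. The cell surface genes thus held the larger part of the receptor reads in both genotypes.

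Divided by exon length, Tlr5 was the highest of the receptor genes in Pde2A+/+ hearts, with 2.43 ± 0.222 CPM per kilobase (SD, n = 6). Tlr4 with 1.50 ± 0.135 and Tlr2 with 1.46 ± 0.207 CPM per kilobase came next and overlapped each other, followed by Tlr3 with 1.02 ± 0.0806 CPM per kilobase. The ranges of the hearts did not overlap between Tlr5 and Tlr4, between Tlr2 and Tlr3 or between Tlr3 and Tlr7. Lower down, Tlr7 with 0.447, Tlr13 with 0.393, Tlr6 with 0.269, Tlr1 with 0.222, Tlr9 with 0.185 and Tlr8 with 0.139 CPM per kilobase each overlapped the next in order. With the length of the longest transcript in place of all exons, Tlr4 and Tlr2 no longer overlapped and Tlr2 and Tlr3 did. In Pde2A-/- hearts Tlr5 with 2.40 ± 0.103 and Tlr4 with 2.23 ± 0.405 CPM per kilobase (SD, n = 5) overlapped. Tlr8 was there at 0.369 CPM per kilobase and overlapped Tlr6 at 0.389 CPM per kilobase.

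**Figure D3:**
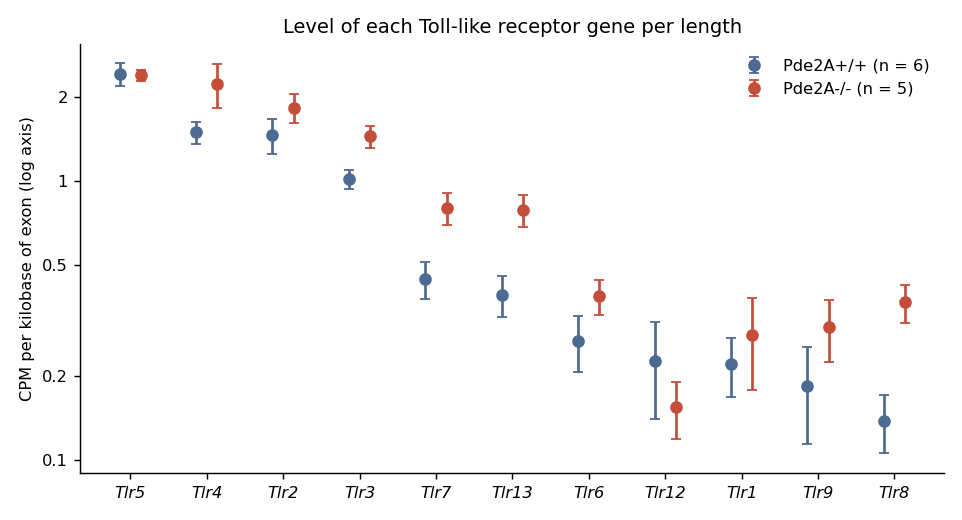
Level per kilobase of exon (y axis, log scale) of the 10 Toll-like receptor genes and Tlr12, in the order of their level in Pde2A+/+ hearts, as mean and SD over 6 Pde2A+/+ (blue) and 5 Pde2A-/- (red) hearts. Tlr5 is highest in Pde2A+/+ at 2.43 CPM per kilobase, and Tlr8, lowest there at 0.139, is at 0.369 in Pde2A-/-.

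Markers of macrophages rose with the receptors. Of 23 macrophage genes 19 were higher in Pde2A-/- and 0 lower, against 8.93% and 5.67% of all genes tested. All 23 estimates were positive with a median log2 fold change of 0.94, and 19 were higher without Pde2A+/+ replicate 7. Their summed level was 367 to 487 CPM in Pde2A-/- and 194 to 290 CPM in Pde2A+/+, a ratio of means of 1.79, and none of the 23 was at 0. The largest changes were those of Fcgr3, a receptor for antibodies, with 1.43 (adjusted p = 2.19e-04) and Timd4, a receptor of tissue macrophages for dying cells, with 1.40 (adjusted p = 0.0145). The highest levels were those of Csf1r, the receptor for macrophage growth factor, with a log2 fold change of 0.65 (adjusted p = 0.00400), and Mrc1, the mannose receptor, with 0.97 (adjusted p = 5.58e-04). The part of these markers in the change of the receptors was not tested.

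Each receptor was therefore also divided by the summed macrophage list of the same heart, as a description without a test. Tlr7 stood at 7.44 ± 0.868 CPM per 1000 CPM of the list in Pde2A-/- (SD, n = 5) and at 7.43 ± 0.977 in Pde2A+/+ (SD, n = 6), a ratio of 1.001. Tlr13 had a ratio of 1.13, Tlr9 of 0.914, Tlr4 of 0.816, Tlr6 of 0.812, Tlr3 of 0.789, Tlr1 of 0.731 and Tlr2 of 0.696, and in these 8 genes the genotypes overlapped. Tlr8 was the 1 gene of the 10 with all Pde2A-/- hearts above Pde2A+/+ on this scale, at 2.98 ± 0.254 (SD, n = 5) against 2.01 ± 0.448 (SD, n = 6) CPM per 1000 CPM, a ratio of 1.48. Single markers of the list had log2 fold changes from 0.19 to 1.43, and the 1.40 of Tlr8 lay inside that range. The list sum was higher in every Pde2A-/- heart than in any Pde2A+/+ heart. A gene at an equal CPM in both genotypes therefore falls on this scale by construction. Tlr5, with a log2 fold change of −0.014 before scaling, was the 1 of the 10 with all Pde2A-/- hearts below. It was at 26.2 ± 3.03 (SD, n = 5) against 48.2 ± 10.9 (SD, n = 6), a ratio of 0.544. Tlr12 also lay below in all Pde2A-/- hearts, at 1.13 ± 0.316 (SD, n = 5) against 3.04 ± 1.46 (SD, n = 6) CPM per 1000 CPM, a ratio of 0.372.

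**Figure D4:**
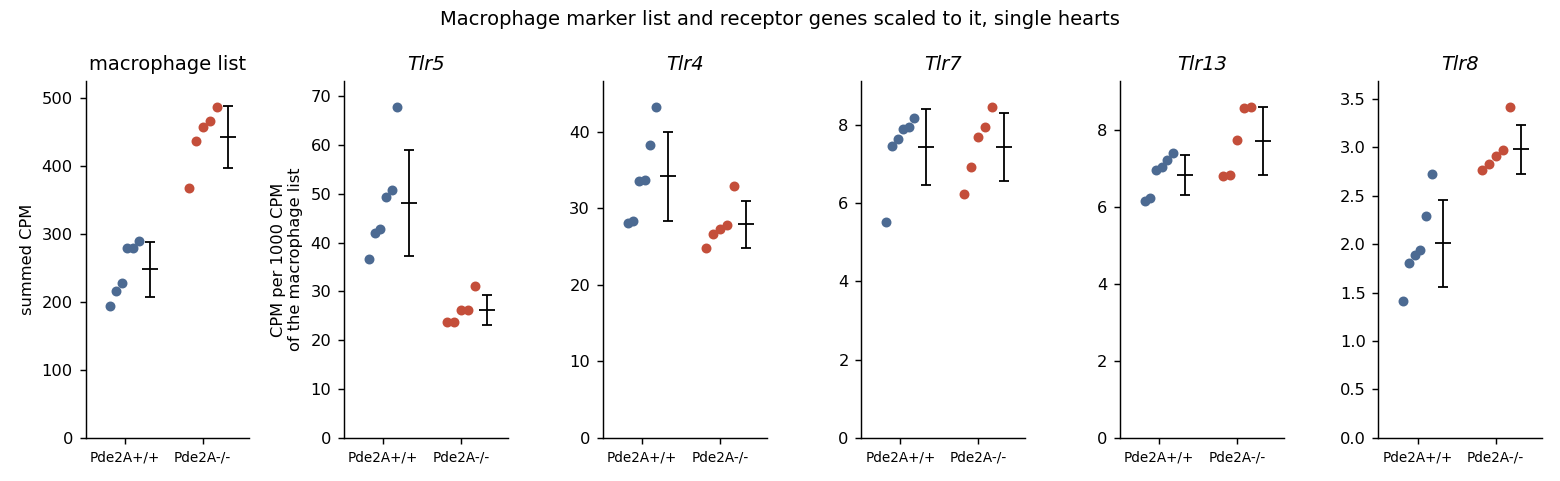
Summed CPM of the macrophage list (first panel) and the level of 5 receptor genes per 1000 CPM of that list (other panels, y axes from 0) in single hearts, with mean and SD beside the points, Pde2A+/+ in blue and Pde2A-/- in red. Scaled to the list, Tlr7 means are 7.43 and 7.44, the Tlr8 hearts of Pde2A-/- lie above and those of Tlr5 below all Pde2A+/+ hearts. A gene at an equal CPM in both genotypes falls on this scale, because the list sum is higher in Pde2A-/-.

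Other marker lists are given beside the share over all genes tested, where 8.93% were called higher and 5.67% lower. Of 8 neutrophil genes tested 7 were higher in Pde2A-/-, with summed levels of 22.7 to 63.4 CPM against 0.784 to 9.83 CPM, while Ly6g, a marker of mature neutrophils, had 3 counts or fewer in every heart. Of 7 erythroid genes 5 were higher, with sums of 344 to 558 CPM against 245 to 508 CPM. Of 7 endothelial genes 2 were higher (1277 to 1408 CPM against 1052 to 1253 CPM), as were 2 of 6 fibroblast genes (4547 to 7657 CPM against 3961 to 7416 CPM). The median log2 fold changes of these 2 lists were small, 0.19 and 0.22. Of 8 cardiomyocyte genes 1 was lower, and the median of that list was −0.095. The part of these lists in the receptor values was not tested.

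The proteins that bind, carry or relay Toll-like receptors were read from 58 genes in 6 roles. In all, 26 were higher in Pde2A-/- and 1 was lower, with a median log2 fold change of 0.24. Over all genes tested 8.93% were called higher and 5.67% lower, and each count by role below is read beside these shares. The count of 26 became 17 without Pde2A-/- replicate D and 21 without Pde2A+/+ replicate 7. The macrophage markers given above rose in the same hearts.

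Of 10 co-receptors and chaperones, 5 were higher. Cd14, which hands lipopolysaccharide to Tlr4, was at 1.38 ± 0.482 CPM (SD, n = 5) against 0.725 ± 0.203 CPM (SD, n = 6), a log2 fold change of 0.93 (adjusted p = 0.0303). Unc93b1, which carries the nucleic acid receptors to endosomes, had 19.8 ± 2.60 against 12.9 ± 1.44 CPM and a change of 0.62 (adjusted p = 0.00133). Ly86, the partner of Cd180, changed by 0.59 (adjusted p = 0.00883), Lbp, the binding protein of lipopolysaccharide in plasma, by 0.54 (adjusted p = 0.00343) and Ly96, the subunit of the Tlr4 complex that holds lipopolysaccharide, by 0.40 (adjusted p = 0.0247). Cnpy3, a chaperone for the folding of the receptors, stood at −0.018 (adjusted p = 0.860).

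Endolysosomal genes, whose proteases cut the nucleic acid receptors into their active form, were higher in 8 of 9. Slc15a3, a lysosomal peptide transporter, changed by 1.13 on the log2 scale (adjusted p = 2.00e-04) and Ctss, cathepsin S, by 1.07 (adjusted p = 4.96e-05). Rab7b, a GTPase of late endosomes, changed by 0.77 (adjusted p = 0.0487) and Ctsl, cathepsin L, by 0.61 (adjusted p = 0.00212).

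Of 6 adaptors 4 were higher. Pik3ap1, which links the receptors to phosphoinositide 3-kinase, rose by 1.13 (adjusted p = 2.08e-05) and Ticam2, the bridge from Tlr4 to Ticam1, by 1.06 (adjusted p = 0.0157). Ticam1, the adaptor of Tlr3 and Tlr4 towards interferon, rose by 0.47 (adjusted p = 0.0211), and Myd88, the adaptor of all the receptors here except Tlr3, by 0.30 (adjusted p = 0.0225), from 12.4 ± 1.24 CPM (SD, n = 6) to 15.4 ± 0.996 CPM (SD, n = 5). Of 16 kinases and ligases 5 were higher and 1 lower, against 8.93% and 5.67% of all genes tested. Tab3, a subunit of the TAK1 complex, changed by 0.64 (adjusted p = 0.00913), Irak2 and Irak4, kinases of the Myd88 complex, by 0.59 (adjusted p = 0.00761) and 0.31 (adjusted p = 0.0311), and Peli1, a ubiquitin ligase, by 0.20 (adjusted p = 0.0440). The 1 gene lower was Chuk, a kinase of the NF-κB pathway, at −0.18 (adjusted p = 0.0426), named after its value was seen.

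Of 10 inhibitors 2 were higher, Tnfaip3, which trims ubiquitin from signalling complexes, with 1.21 (adjusted p = 0.00389) and Nfkbia, which holds NF-κB in the cytoplasm, with 0.40 (adjusted p = 0.00593). Of 7 transcription factors 2 were higher. Irf7, which acts downstream of Tlr7 and Tlr9 and is itself induced by interferon, went from 1.64 ± 0.430 CPM (SD, n = 6) to 16.6 ± 6.55 CPM (SD, n = 5), a log2 fold change of 3.34 (adjusted p = 1.45e-05). Irf8, a factor of the myeloid lineage, changed by 0.56 (adjusted p = 0.0160).

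**Figure D5:**
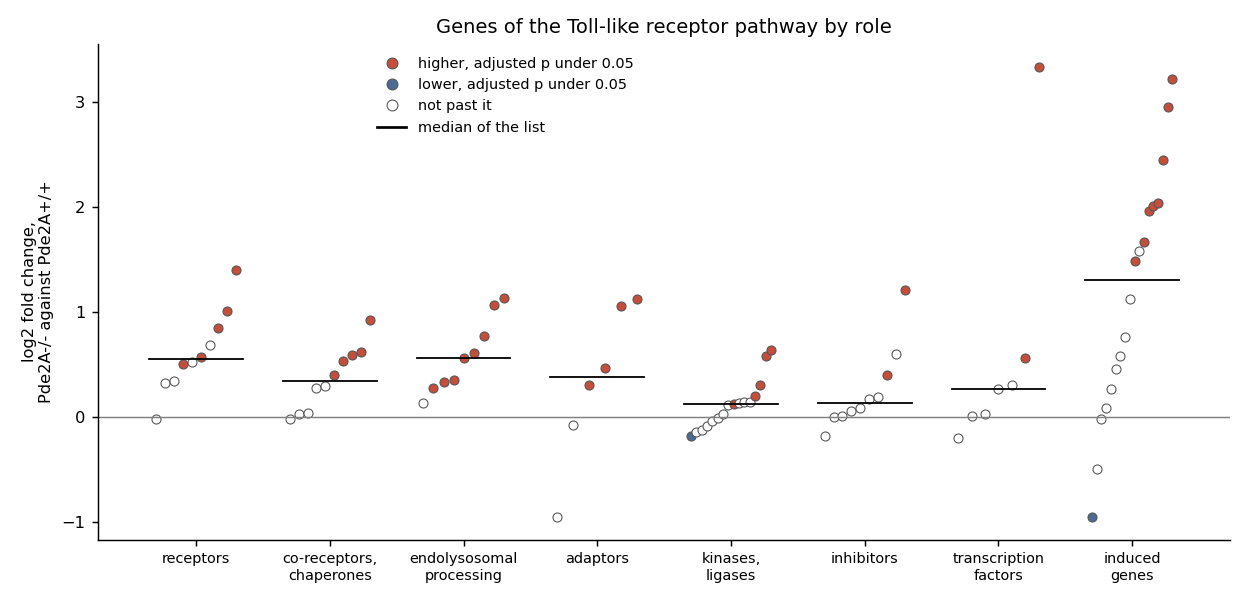
Log2 fold change in Pde2A-/- against Pde2A+/+ hearts (y axis) of each tested gene of the Toll-like receptor pathway, in columns by role, with the median of each list as a line. Red points passed an adjusted p of 0.05 upwards and blue points downwards. The highest points are Irf7 at 3.34 and Lcn2 at 3.23, and the endolysosomal list has 8 of 9 genes in red.

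Genes that Toll-like receptor signals are known to switch on were mostly at low levels. Of 21 such genes 18 could be tested, 8 were higher and 1 lower, against 8.93% and 5.67% of all genes tested. Ifnb1, the gene for interferon beta, had 0 counts in all hearts. Lcn2, an iron-sequestering protein that neutrophil granules also hold, was at 2.17 ± 0.928 CPM (SD, n = 5) against 0.228 ± 0.180 CPM (SD, n = 6), a log2 fold change of 3.23 (adjusted p = 8.57e-04). Il1a changed by 2.95 (adjusted p = 8.25e-04), the chemokine Cxcl1 by 2.45 (adjusted p = 0.00322) and Il6 by 2.04 (adjusted p = 0.00334), from means of 0.0689, 0.186 and 0.0727 CPM in Pde2A+/+. Nos2, the inducible nitric oxide synthase, was lower, at 2.05 ± 0.521 against 3.97 ± 1.17 CPM with a change of −0.95 (adjusted p = 0.0189), and was named after its value was seen. The 9 tested genes that did not pass were Tnf, Il1b, Il12b, Cxcl2, Ccl3, Ccl5, Cd40, Cd80 and Cd86, also named after their values were seen. The count of 8 became 4 without Pde2A-/- replicate 15, 5 without replicate 14 or replicate D, and 5 without Pde2A+/+ replicate 6. The neutrophil and macrophage markers above rose in the same hearts, and their part was not tested.

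Genes of the interferon response rose more. Of 16 such genes 15 were higher in Pde2A-/-, where the share over all genes tested was 8.93%. Their summed levels were 189 to 404 CPM against 88.3 to 106 CPM, with a median log2 fold change of 2.84. Isg15, a ubiquitin-like protein, changed by 4.52 (adjusted p = 7.41e-06) and Ifit1, which binds viral RNA, by 4.30 (adjusted p = 4.59e-06). Bst2, which tethers virus particles, had one of the highest levels and changed by 2.06 (adjusted p = 1.20e-05), while Ifit2 stood at 0.32 (adjusted p = 0.0512). Pde2A-/- replicate A had the lowest interferon sum of the Pde2A-/- hearts, 189 CPM, the lowest macrophage sum, 367 CPM, the lowest erythroid sum, 344 CPM, and the lowest Tlr4, Tlr7, Tlr8 and Tlr13 of that genotype. It was not the lowest of them for Tlr1, Tlr2, Tlr3, Tlr5, Tlr6 or Tlr9.

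For the 3 receptors with the highest levels, the genes whose level moved most alike from heart to heart were listed, as Pearson's r of log2 CPM over 11 hearts after the mean of each genotype was taken out, among 14023 genes that averaged 1 CPM or more. For Tlr5 these were Rnf149 (0.914), Kcnmb1 (0.892) and Ppip5k1 (0.851). For Tlr4 they were Adgrf5 (0.962), Ubr7 (0.946) and Kif26a (0.942). For Tlr3 they were Tyk2 (0.897), Abcb1a (0.880) and Slc9a7 (0.878). The hearts share library preparation and depth, these are the highest of many values, and no test was made.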

How the data were processed

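RNA was sequenced from 11 embryonic hearts, 5 Pde2A-/- and 6 Pde2A+/+, as stranded poly(A) libraries read from 1 end on an Illumina NextSeq. Alignment to GRCm38 was done with STAR by the authors, who deposited raw counts per gene and strand for each heart, without normalization or filtering. STAR counts a read only where it maps to 1 place and lies on 1 gene. In each library 19.6 to 22.4% of reads were not on a gene, and these 4 lines were left out. Genotypes were taken from the labels, which give no litter, batch or sex, and each library is labelled as a heart of its own.

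The counts on the gene strand were used. A gene entered the fit with 10 or more counts summed over all hearts, which left 24177. TMM factors and quasi-likelihood F-tests of genotype came from edgeR 4.0.16 (R 4.3.3), p-values were adjusted by Benjamini-Hochberg over that table, and an adjusted p under 0.05 was the threshold for a call. The test was checked on simulated counts before use. The limit on wrong calls there was first set for both tools. DESeq2 exceeded it, and the limit was then kept for edgeR alone, so the DESeq2 counts, which include more wrong calls on the same simulated counts, are read with that. Positions and exon lengths are from GENCODE M21 (GRCm38), which named 55227 of 55487 identifiers, and start-site sequences from RefSeq. CPM values are TMM-normalized.

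Members and lists were chosen with earlier results of these data known. Named are all Toll-like receptor genes, Pde2a, up to 4 called genes with the largest change per role plus Cd14, Ly96, Unc93b1, Cnpy3, Myd88 and Ticam1, the 2 largest changes and 2 highest levels of the macrophage and interferon lists, and the 3 genes most alike to each of 3 receptors. The motifs, the grouping by place in the cell, the level-matched share of calls, the screen of list sums for hearts that stand apart and the shared 50-base stretches were added after the values had been seen. The result of 1 marker list is not reported here.

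Alternatives, 1 at a time, were DESeq2 1.42.0, its size factors inside edgeR, the filterByExpr function, leaving genes with few counts in, both strands summed, the style of the replicate name or Xist as a covariate, a fold change of at least 2, the longest transcript as length, and each heart left out. The counts of 4 further lists without each heart were added after the data had been seen. The spread between hearts, a common biological coefficient of variation of 16.8%, sets the precision, and genes with few reads such as Tlr1, Tlr8 and Tlr9 carry more counting error.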

Additional observations from a re-analysis of the deposited data

Results flagged for a closer look

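Of 30 groups of hearts examined, single receptor genes and list sums by genotype, 3 held a heart far from the others by Dixon's test, and chance alone flags about 1 in 20 groups. Tlr6 in Pde2A-/- replicate D was at 1.80 CPM, with the other Pde2A-/- hearts between 1.27 and 1.42 CPM. Tlr8 in Pde2A+/+ replicate 6 was at 0.274 CPM, a level of 10 reads, with the other Pde2A+/+ hearts between 0.495 and 0.621 CPM. Without that heart the log2 fold change of Tlr8 was 1.29 and passed the test. The summed T cell markers of Pde2A+/+ replicate 7 were at 92.6 CPM, with the other Pde2A+/+ hearts between 1.79 and 2.38 CPM. In that heart Tlr12, at 1.199 CPM, was also the highest of all 11 hearts, and the 5 receptor genes called higher were called without it.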

How the results depend on the processing

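Tlr3, Tlr4, Tlr7, Tlr8 and Tlr13 stayed higher and past the threshold in all 18 other fits. Tlr9, Tlr1 and Tlr12 passed in 0 of 18. Tlr2 passed with DESeq2 (adjusted p = 0.0332) and without Pde2A-/- replicate B (0.0460), and Tlr6 with DESeq2 (0.0287), filterByExpr (0.0417) and without Pde2A+/+ replicate 11 (0.0219), so 5 to 7 receptor genes were called higher, 5 to 6 of them when hearts were left out, and 2 at a fold change of at least 2. None was called lower in any fit. The log2 fold change of Tlr5 turned from −0.014 to 0.015 with the style of the replicate name as a covariate and ran from −0.048 to 0.027 with hearts left out. Pathway genes called higher numbered 17 to 31 with hearts left out and 6 at a fold change of at least 2. Those called lower numbered 2 with DESeq2, filterByExpr or Xist as a covariate, 0 without a filter or at a fold change of at least 2, and 0 to 3 with hearts left out. Over all genes, 535 were higher and 90 lower at a fold change of at least 2, DESeq2 called 2354 lower against 1372, and leaving out hearts gave 1288 to 2887 higher and 414 to 2165 lower, the lowest without Pde2A-/- replicate D and the highest without replicate A. A stricter threshold lowers a count by definition, and the cause of the other shifts was not tested. No paired analysis was possible because the labels give no litter, so any likeness between littermates was not modelled.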

Other observations

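Other immune lists were mixed, and over all genes tested 8.93% were called higher and 5.67% lower. Of 5 monocyte genes tested 1 was higher and 1 lower, of 5 mast cell genes 1 was lower and 1 estimate was positive, and of 5 dendritic cell genes tested 1 was higher and 1 lower. Among monocyte genes F10, a coagulation factor, rose by 1.02 on the log2 scale (adjusted p = 4.81e-04 by edgeR). Ccr2, the chemokine receptor of monocytes, was lower in Pde2A-/- hearts, at 1.31 ± 0.215 CPM (SD, n = 5) against 3.73 ± 1.49 CPM (SD, n = 6), with no overlap and a log2 fold change of −1.51 (adjusted p = 0.00377 by edgeR). Cpa3, the carboxypeptidase of mast cells, was lower as well, at 1.13 ± 0.248 CPM against 3.73 ± 1.70 CPM, a log2 fold change of −1.73 (adjusted p = 0.00684 by edgeR). Siglech, a marker of plasmacytoid dendritic cells, which use Tlr7 and Tlr9, fell to 0.0566 CPM from 0.157 CPM, a log2 fold change of −1.43 (adjusted p = 0.0392 by edgeR). These levels rest on 1 to 4 reads per heart in Pde2A-/- and 3 to 10 in Pde2A+/+, and the genotypes overlapped. Clec9a, a marker of dendritic cells that take up dead cells, rose by 1.17 on the log2 scale (adjusted p = 0.0276 by edgeR). Xcr1, which marks the same dendritic cells, and Cd209a had 3 counts or fewer in every heart. These genes were named after their values were seen.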
